A study of Mus musculus with 6 samples.

Results

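The cell cycle is followed here through 43 genes whose transcripts accumulate as cells copy their DNA and divide, measured by RNA-seq in diseased mouse esophagus. They were chosen by symbol from a list of S-phase and G2/M genes. All 43 were found among the 54232 gene identifiers of the count files, and all 43 were among the 15763 genes with enough reads to test. They were read as 19 replication genes and 24 mitosis genes.

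The 6 libraries come from mice that drank the carcinogen 4-nitroquinoline 1-oxide (4-NQO), which damages DNA in squamous epithelium and leads to esophageal squamous cancer. Every mouse began at 8 weeks of age, took 100 µg/ml for 16 weeks and then had plain water for 12 weeks. From 2.5 weeks before sacrifice, 3 libraries' mice received 10 µg of DTA-1 in 2 injections a week. DTA-1 is an agonist antibody to GITR, a co-stimulatory receptor on T cells. The mice of the other 3 libraries received an isotype control antibody on the same schedule. No group without carcinogen or without antibody is among the samples. The tissue was esophagus enriched for invading cells, and it still held muscle and stroma. The sources used here name neither strain nor sex. Whether the libraries come from different mice is not stated in the labels, and the p-values then speak only of library-to-library spread, part of which may be technical.

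A cell commits to division when cyclin E and E2F factors switch on the genes of S phase. The MCM helicase is then loaded at replication origins, a step called licensing, and is activated with the help of the GINS complex, while ribonucleotide reductase and thymidylate synthase supply nucleotides. Later, in G2, FOXM1 and related factors switch on the mitosis genes: the cyclin B and CDK1 kinase that drives entry, the spindle motors, the kinetochore and its checkpoint, and the ligase that ends mitosis. In squamous epithelium such as that of the esophagus, division takes place in the basal layer, which is marked by the keratin KRT5, and cells leave the cycle as they move up and differentiate.

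Libraries held 23147873 to 29065162 counts. Levels are in CPM, read counts scaled to the library's size by TMM, and in what follows 3 values for a group are replicates 1, 2 and 3 in that order. The smallest count of any member in any library was 16 reads, against the 3 reads taken as the floor of detection. All 12 basal squamous markers and all 12 differentiated squamous markers were present in every library, and so were all 12 striated muscle markers. The summed level of the basal list was 19454, 11886 and 7306 CPM with isotype and 13979, 3960 and 4968 CPM with DTA-1. Striated muscle markers summed to 44357 to 91235 CPM with isotype and 96331 to 143808 CPM with DTA-1. DTA-1 replicate 2 stood apart in red cell transcripts, at 2673 CPM against 77.0 to 157.7 CPM in the other 5 libraries. Isotype replicate 1 stood apart in fibroblast markers, which summed to 3012 CPM against 707 to 1676 CPM in the other 5. It was also lowest in summed smooth muscle markers, at 8160 CPM against 13568 to 21045 CPM. The part of these tissues in the results was not tested. In such mixed tissue, fewer cells of a type and less RNA per cell cannot be told apart.

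The promoters were searched for sites known from each program. Classical S-phase promoters carry E2F sites, and classical mitosis promoters pair CCAAT boxes with a cell cycle homology region (CHR). RefSeq promoters on GRCm38.p6 were matched by symbol for 36 of the 43 members, with 39 start sites, and the 250 bases before each start were searched on both strands. The E2F forms searched were TTTGGCGC, TTTCCCGC, TTTGCCGC and TTTCGCGC. They were found in 6 of 18 replication promoters (33.3%), in 1 of 21 mitosis promoters (4.8%) and in 1.9% of all 32851 promoters of that length. The CHR, TTTGAA, together with CCAAT was found in 8 of 21 mitosis promoters (38.1%), in 1 of 18 replication promoters (5.6%) and in 5.5% of all promoters. CCAAT alone is common, with 33.8% of all promoters holding it, and it was in 19 of the 21 mitosis and 12 of the 18 replication promoters. A match describes these letters and is not a measured binding site.

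The 2 replication promoters with the most E2F matches are those of the helicase subunit genes Mcm5 and Mcm6, shown 5′ to 3′ with the E2F matches in capitals. In Mcm5 a match on each strand overlaps in 1 run (plus strand, chr8:75109259-75109508), and Mcm6 holds such a run and a further single match (minus strand, chr1:128359706-128359955).
Mcm5: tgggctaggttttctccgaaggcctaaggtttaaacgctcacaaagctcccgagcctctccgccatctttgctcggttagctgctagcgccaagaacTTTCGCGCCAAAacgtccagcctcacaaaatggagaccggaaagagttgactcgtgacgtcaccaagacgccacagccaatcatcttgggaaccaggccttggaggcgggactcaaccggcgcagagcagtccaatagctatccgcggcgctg
Mcm6: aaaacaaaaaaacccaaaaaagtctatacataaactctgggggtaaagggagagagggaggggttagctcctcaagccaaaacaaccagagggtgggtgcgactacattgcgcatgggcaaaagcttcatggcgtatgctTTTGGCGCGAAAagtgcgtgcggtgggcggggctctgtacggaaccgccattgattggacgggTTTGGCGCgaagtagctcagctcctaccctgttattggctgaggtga

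The 3 mitosis promoters with 2 CHR matches are those of Mki67, Top2a and Cdk1, shown 5′ to 3′ with CHR and CCAAT matches of either strand in capitals (minus strand, chr7:135716380-135716629, chr11:99024190-99024439 and chr10:69352913-69353162). The Cdk1 promoter also holds the only E2F match among the mitosis promoters, left in lower case.
Mki67: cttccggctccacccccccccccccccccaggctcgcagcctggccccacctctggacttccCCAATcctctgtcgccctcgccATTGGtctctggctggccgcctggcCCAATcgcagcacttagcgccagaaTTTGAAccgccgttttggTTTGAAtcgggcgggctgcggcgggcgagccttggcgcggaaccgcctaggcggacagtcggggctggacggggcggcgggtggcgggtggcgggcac
Top2a: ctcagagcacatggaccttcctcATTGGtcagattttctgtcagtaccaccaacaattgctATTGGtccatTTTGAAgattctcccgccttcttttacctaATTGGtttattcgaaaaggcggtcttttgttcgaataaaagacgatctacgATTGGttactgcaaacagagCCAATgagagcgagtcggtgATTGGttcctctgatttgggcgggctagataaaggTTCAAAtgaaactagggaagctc
Cdk1: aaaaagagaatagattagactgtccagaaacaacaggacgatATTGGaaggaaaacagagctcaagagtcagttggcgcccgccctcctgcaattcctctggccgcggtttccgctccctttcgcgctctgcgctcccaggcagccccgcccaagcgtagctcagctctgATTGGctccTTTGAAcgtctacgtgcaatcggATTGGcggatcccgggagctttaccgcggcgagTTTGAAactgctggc

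Replication transcripts were graded across the 6 libraries, and the grading ran across both treatment groups. Summed over the 19 genes they came to 514.8, 342.6 and 198.6 CPM with isotype and to 355.9, 193.2 and 172.2 CPM with DTA-1. Isotype replicate 1 was highest in 19 of 19 genes, where 25.5% of all genes tested were highest in that library. Isotype replicate 2 and DTA-1 replicate 1 came next at nearly the same level, and the other 3 libraries lay close together at the bottom. Among those 3, isotype replicate 3 was the lowest of all 6 libraries in 7 of the 19 genes, DTA-1 replicate 2 in 4 and DTA-1 replicate 3 in 8.

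**Figure D1:**
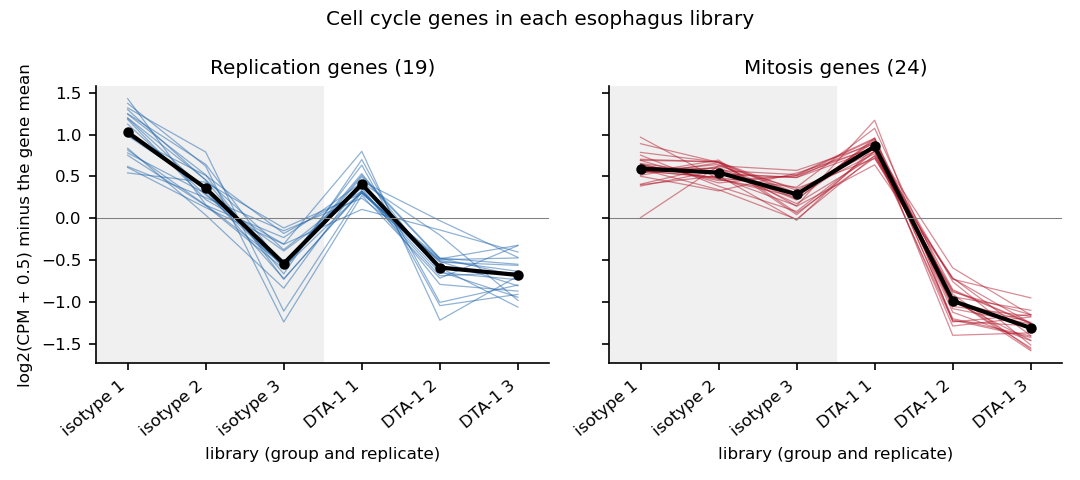
Each thin line joins the values of 1 gene in the 6 libraries, as log2(CPM + 0.5) minus the gene's mean over the libraries, with replication genes on the left and mitosis genes on the right. The black line is the mean of the class and the grey area marks the isotype libraries. Isotype replicate 3 sits with DTA-1 replicates 2 and 3 in the left panel and with the other isotype libraries in the right panel.

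At the gate into S phase, Ccne1 encodes cyclin E1 (chromosome 7, 38097984 to 38107534, ENSMUSG00000002068). It measured 13.9, 8.98 and 3.54 CPM with isotype and 8.91, 2.45 and 2.74 CPM with DTA-1. E2f1, the transcription factor that switches on S-phase genes, measured 12.2, 7.05 and 1.59 CPM with isotype, and isotype replicate 3 was its lowest library. Its DTA-1 values of 5.44, 2.50 and 3.42 CPM all fell inside that range. The second E cyclin gene, Ccne2, was at 10.5, 6.79 and 3.82 against 8.74, 4.19 and 4.75 CPM.

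Licensing and helicase genes were all highest in isotype replicate 1, and their lowest library differed: isotype replicate 3 for 5 of the 10, DTA-1 replicate 2 for 3 and DTA-1 replicate 3 for 2. Mcm5, a subunit of the replicative helicase (chromosome 8, 75109569 to 75128439, ENSMUSG00000005410), read 45.7, 25.3 and 11.4 CPM with isotype and 30.1, 8.90 and 10.4 CPM with DTA-1. Mcm2, of the same ring, differed least between the groups of all members, with 38.9, 22.2 and 11.9 CPM against 29.5, 21.2 and 15.5 CPM. Its lowest library was an isotype one. Cdc6, which loads the helicase onto origins, was the scarcest gene of the set in isotype replicate 3, with 16 reads there or 0.577 CPM. Elsewhere it reached 5.27 and 3.51 CPM with isotype, and 2.39, 0.942 and 0.984 CPM with DTA-1. The second loading factor, Cdt1, stood at 17.7, 10.4 and 5.63 against 9.70, 4.10 and 3.85 CPM. Mcm10, which helps to fire the loaded helicase, gave 7.56, 3.66 and 2.38 against 5.70, 1.04 and 1.71 CPM. Gins2, a GINS subunit, gave 4.90, 3.39 and 1.91 against 2.91, 1.32 and 0.813 CPM. In Mcm10, Cdt1 and Gins2 the DTA-1 replicates 2 and 3 were the lowest, while DTA-1 replicate 1 lay above isotype replicate 3.

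By their median, the 4 genes of the sliding clamp and of nucleotide supply spanned less of that gradient. Their median in isotype replicate 3 relative to isotype replicate 1 was -1.0 on the log2 scale, against -1.64 for the 10 licensing and helicase genes. The sets overlapped, with Tyms at -1.61 and the helicase gene Mcm7 at -0.78. Pcna was at 33.1, 23.6 and 17.3 against 23.3, 19.6 and 16.2 CPM. Rrm2, the S-phase subunit of ribonucleotide reductase, was at 25.8, 16.2 and 12.3 against 19.6, 12.5 and 7.10 CPM. Thymidylate synthase, Tyms, was at 11.3, 6.07 and 3.64 against 6.17, 3.30 and 2.61 CPM. Outside these 4 genes, Uhrf1, which carries DNA methylation over to the new strand, was at 21.3, 8.56 and 5.01 against 11.2, 4.71 and 3.72 CPM. Per kilobase of exon, Pcna was the most abundant replication transcript in isotype libraries (10.3 CPM per kb) and Mcm10 the least (0.589 CPM per kb).

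Mitosis transcripts fell in the same order of replicates within each group, but not by the same steps. Summed over the 24 genes they came to 464.7, 442.5 and 366.2 CPM with isotype and to 542.2, 141.8 and 109.5 CPM with DTA-1. Every one of the 24 genes had its 2 lowest values in DTA-1 replicates 2 and 3, against 22.8% of all genes tested and 9 of the 19 replication genes. DTA-1 replicate 1 was the highest library in 21 of 24, against 10.4% of all genes and none of the 19 replication genes. The libraries thus formed an upper set of 4 and a lower pair, and the lower pair shared its treatment with 1 library of the upper set.

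Among the kinases and cyclins of mitotic entry, Cdk1 (chromosome 10, 69335146 to 69352938, ENSMUSG00000019942) measured 21.2, 17.5 and 18.7 CPM with isotype and 25.4, 5.70 and 4.41 CPM with DTA-1. Its partner cyclin gene Ccnb1 was at 6.34, 5.96 and 4.62 against 9.87, 1.46 and 1.58 CPM. Plk1, a kinase of spindle assembly, was at 11.2, 9.88 and 8.69 against 13.1, 3.96 and 2.14 CPM. Foxm1, the transcription factor of this gene class, was at 9.47, 11.1 and 9.13 against 11.8, 4.10 and 2.35 CPM. In each of these 4 genes the isotype libraries lay within a narrow band, and the DTA-1 libraries lay on both sides of it.

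Chromosome and spindle genes divided the libraries in the same way. Top2a, the topoisomerase that untangles sister chromosomes (chromosome 11, 98992943 to 99024189, ENSMUSG00000020914), read 68.2, 58.4 and 44.5 CPM with isotype and 69.4, 13.6 and 13.9 CPM with DTA-1. Mki67, whose product coats mitotic chromosomes and is the usual marker of cycling cells (chromosome 7, 135689784 to 135716361, ENSMUSG00000031004), was at 62.6, 57.7 and 44.5 against 61.9, 18.3 and 11.8 CPM. Its mean was 54.9 ± 9.33 CPM with isotype and 30.7 ± 27.3 CPM with DTA-1 (SD, n = 3 each), so the DTA-1 spread was nearly as large as the DTA-1 mean.

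The kinetochore and checkpoint genes gave the same picture. Aurkb, the kinase of the chromosomal passenger complex, was at 11.1, 9.62 and 10.0 against 12.8, 2.54 and 2.78 CPM. Cenpf, a kinetochore protein gene, was at 14.0, 16.0 and 15.4 against 21.0, 5.09 and 3.55 CPM. The checkpoint kinase gene Bub1b was at 14.6, 15.8 and 10.8 against 20.1, 7.11 and 4.66 CPM. Cdc20, which switches on the anaphase ligase, was at 29.1, 27.5 and 25.4 against 41.6, 9.80 and 6.37 CPM. Cdc20 had the highest level per kilobase of the mitosis genes in isotype libraries (14.6 CPM per kb) and Cenpf the lowest (0.979 CPM per kb). The Cdc20 gene overlaps Elovl1 on the opposite strand, a gene at 156.8 CPM on average, and without a known strand setting their reads cannot be told apart. The same holds for Mcm7 and Cops6 (115.9 CPM), for Ccna2 and Exosc9 (27.2 CPM) and for Ccne2 and Ints8 (28.2 CPM). It also holds for Gins2 and Gse1 (18.4 CPM), and that Gse1 mean lies above the Gins2 value of every library. Some other members overlap opposite-strand genes with lower levels than these.

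**Figure D2:**
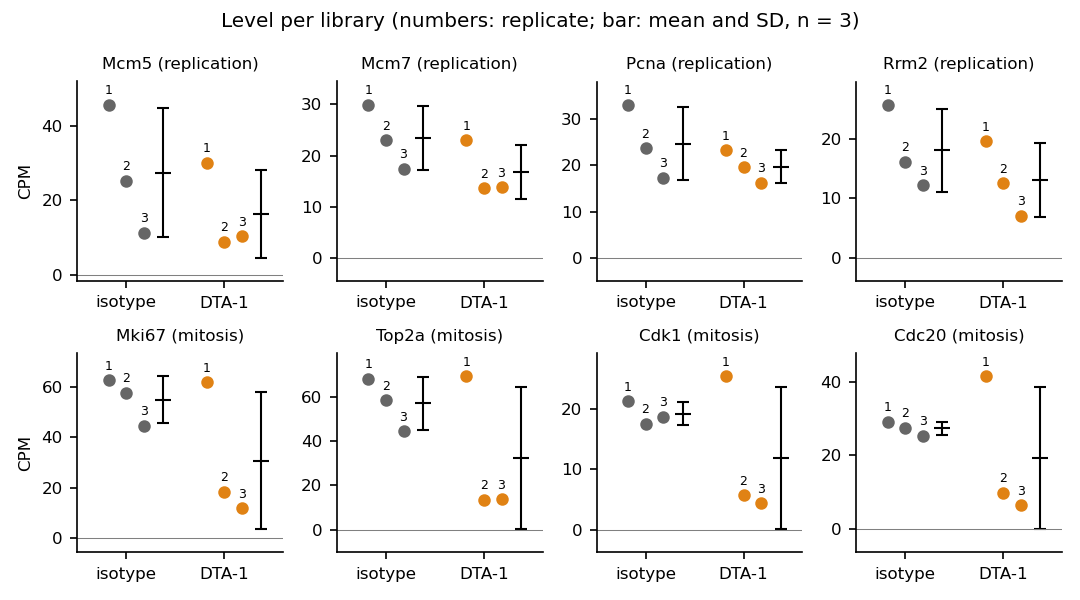
CPM in each library for 4 replication genes (top) and 4 mitosis genes (bottom), with isotype in grey and DTA-1 in orange. Numbers give the replicate, and the bar beside each group is its mean and SD (n = 3). In the bottom row DTA-1 replicate 1 lies with or above the isotype libraries and DTA-1 replicates 2 and 3 lie below them.

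Isotype replicate 3 separates the 2 classes most plainly. Relative to isotype replicate 1, its replication genes were lower by a median of -1.63 on the log2 scale and its mitosis genes by a median of -0.36, while the median of all genes tested was -0.01. Relative to DTA-1 replicate 2, the medians were -0.03 for replication and 1.37 for mitosis genes, and relative to DTA-1 replicate 3 they were 0.14 and 1.73. Isotype replicate 3 was at or below the higher of DTA-1 replicates 2 and 3 in 62% of all genes. In replication genes this held for 10 of 19, no larger a share, and in mitosis genes for 0 of 24. DTA-1 replicate 1 leaned the same way, with a median of -0.64 for replication and 0.22 for mitosis genes relative to isotype replicate 1. The ratio of Mki67 to Mcm5 was 1.37, 2.28 and 3.91 with isotype and 2.06 in both DTA-1 replicates 1 and 2, and it was lowest in DTA-1 replicate 3. As a mean difference of log2 CPM, mitosis minus replication, the libraries gave -0.37, 0.27 and 0.98 with isotype and 0.54, -0.32 and -0.58 with DTA-1. The groups overlap in both measures, and these contrasts of single libraries carry no test.

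The comparison of DTA-1 with isotype asks how the tissue differs after GITR agonism. All 43 members had negative fold changes, where 52.9% of all genes did, and none passed the test. By edgeR's quasi-likelihood test with Benjamini-Hochberg adjustment over 15763 genes, 0 of 43 passed 0.05, beside 0 of all genes (0%). At an unadjusted p under 0.05 edgeR also counted 0 of 43, against 12.7% of all genes in either direction and 7.52% lower with DTA-1. DESeq2 and limma-voom called 0 of 43 as well, DESeq2 calling 1.24% of the genes to which it gave an adjusted p. In no member did every DTA-1 library lie below every isotype library, as they did in 9.38% of all genes.

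The 19 replication genes had a median log2 fold change of -0.69, from -1.11 to -0.14, and the 24 mitosis genes a median of -0.67, from -0.84 to -0.37. The median of all genes was -0.03. That the class medians were nearly equal depends on the method: limma-voom gave -0.58 for replication and -1.01 for mitosis genes. Cdc6 (-1.11 ± 0.79, SE) and Gins2 (-1.01 ± 0.57) had the most negative replication values, and Mcm2 (-0.14 ± 0.44) and Ccne2 (-0.26 ± 0.46) the least. Among mitosis genes Mki67 (-0.84 ± 0.58) and Top2a (-0.82 ± 0.64) stood at one end, and Bub1b (-0.37 ± 0.53) and Ccnb1 (-0.39 ± 0.74) at the other. Adjusted p in edgeR ran from 0.445 to 0.894 over the replication genes and from 0.518 to 0.820 over the mitosis genes.

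A single library decided the outcome for the mitosis genes. Without DTA-1 replicate 1, edgeR called 16 of the 24 lower with DTA-1 (adjusted p under 0.05), beside 3.31% of the 16303 genes then tested, and called 0 of the 19 replication genes. The mitosis median was then -1.75 and the replication median -1.23. Top2a fell by 2.05 ± 0.22 on the log2 scale (SE, edgeR adjusted p = 0.0302), Cdk1 by 1.92 ± 0.23 (0.0302) and Mki67 by 1.87 ± 0.27 (0.0376). The smallest adjusted p of a replication gene in that fit was 0.0965, for Rrm1 (a fold change of -0.90 ± 0.24). The library left out was the highest one in 21 of the 24 mitosis genes. The calls made without it follow from those values and are no further support. Whether the 2 classes differ in their response was not tested. Leaving out isotype replicate 1 instead gave a replication median of -0.16, and leaving out DTA-1 replicate 2 gave -0.46. For mitosis genes the median became -0.38 when DTA-1 replicate 2 was left out and -0.30 when DTA-1 replicate 3 was.

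**Figure D3:**
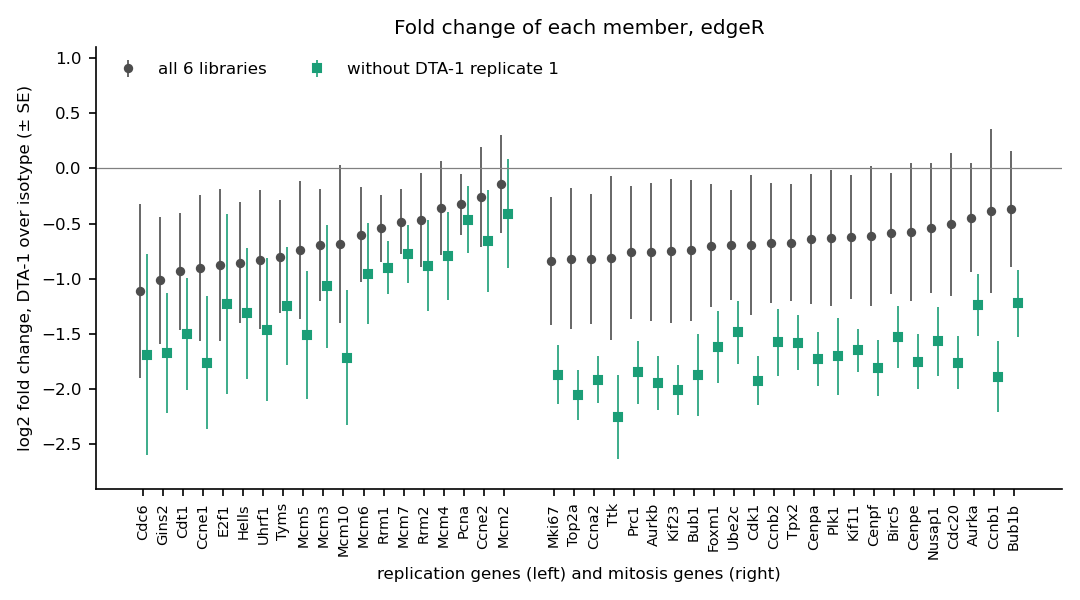
Log2 fold change of each member, DTA-1 over isotype, with its SE from edgeR, for all 6 libraries (grey circles) and without DTA-1 replicate 1 (green squares). With all libraries every value is negative and none passes, and without that library the mitosis genes lie between -1.22 and -2.25.

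The level of Krt5, the basal keratin, followed the replication genes from library to library. Krt5 (chromosome 15, 101707070 to 101712898, ENSMUSG00000061527) measured 4941, 2945 and 1647 CPM with isotype and 3076, 1088 and 1204 CPM with DTA-1, and its own fold change of -0.83 ± 0.56 did not pass (adjusted p = 0.513 in edgeR). Pearson's r with Krt5 over the 6 libraries, on log2 CPM, was above 0.9 for 15 of 19 replication genes, against 5.76% of all genes, and the lowest was 0.76, for Mcm2. Such correlations share the libraries and their scaling, and Krt5, like all 19 replication genes, was highest in isotype replicate 1. The 12 basal markers did not all share the Krt5 gradient. In isotype replicate 3 relative to isotype replicate 1 their median was -1.05 on the log2 scale, from -2.58 for Krt14 to 0.46 for Krt15. Krt5 was at -1.59, Trp63 at -0.20 and Perp at -0.01, so Krt5 does not stand for every basal marker.

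Mcm7, another subunit of the helicase, gave r = 0.997 (exact permutation p = 0.00278, adjusted 0.137 over 15762 genes) and Spearman's rho = 0.943 (exact permutation p = 0.0167, adjusted 0.245). Mcm5 gave r = 0.989 (exact permutation p = 0.00139, adjusted 0.137) and rho = 1.0 (exact permutation p = 0.00278, adjusted 0.222), 0.00139 being the smallest p that 720 pairings can give. Mcm7 was named after its r, the highest of all 15762 genes, was seen. Left without isotype replicate 1 and DTA-1 replicate 2, the libraries farthest from the median of Krt5, r was 0.993 for Mcm7 and 0.974 for Mcm5. Over the 19 replication genes it then ran from 0.690 for E2f1 to 0.999 for Tyms. No gene's correlation passed after adjustment. With so few pairings, many genes would have to share the smallest p for any to pass, so this outcome says little. For the 24 mitosis genes the median r over all 6 libraries was 0.85, from 0.64 to 0.92, against a median of 0.96 for the replication genes. Without isotype replicate 1 and DTA-1 replicate 2 the medians were 0.89 for mitosis and 0.95 for replication genes. The mitosis values fall into an upper set of 4 libraries and a lower pair, which limits what 1 correlation over all 6 can show. Counted in the same way, 5 of the 24 had r above 0.9, and whether the classes differ in this was not tested. In the upper set Krt5 ranged from 1647 to 4941 CPM while Mki67 ranged from 44.5 to 62.6 CPM and Cdk1 from 17.5 to 25.4 CPM.

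Set against Krt5 in the same library, the 2 classes differed in how far their medians spread. For replication genes the median of log2 CPM of the member minus that of Krt5 was -7.77, -7.76 and -8.17 with isotype and -8.01, -7.54 and -7.78 with DTA-1. For mitosis genes it was -8.42, -7.59 and -6.98 with isotype and -7.27, -7.63 and -8.22 with DTA-1, a wider range, and the groups overlapped in both classes. Single replication genes did not keep a fixed distance: with treatment in the fit, their slopes on log2 Krt5 ran from 0.41 ± 0.14 (SE) for Pcna to 1.39 ± 0.38 for Cdc6. In a fit of treatment and Krt5 together, the slope on Krt5 was positive for all 43 members. It reached an unadjusted p under 0.05 in 19 of 19 replication and 19 of 24 mitosis genes, against 11.6% of all genes. After adjustment edgeR called 0 of 43 slopes and 0 of all 15762, the smallest adjusted p being 0.259, for Mcm5 (slope 1.21 ± 0.11). In that fit the treatment term was negative in 4 of 19 replication genes (median 0.16) and in 21 of 24 mitosis genes (median -0.29), against 49.8% of all genes. No member was called by edgeR there, the smallest adjusted p being 0.986.

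**Figure D4:**
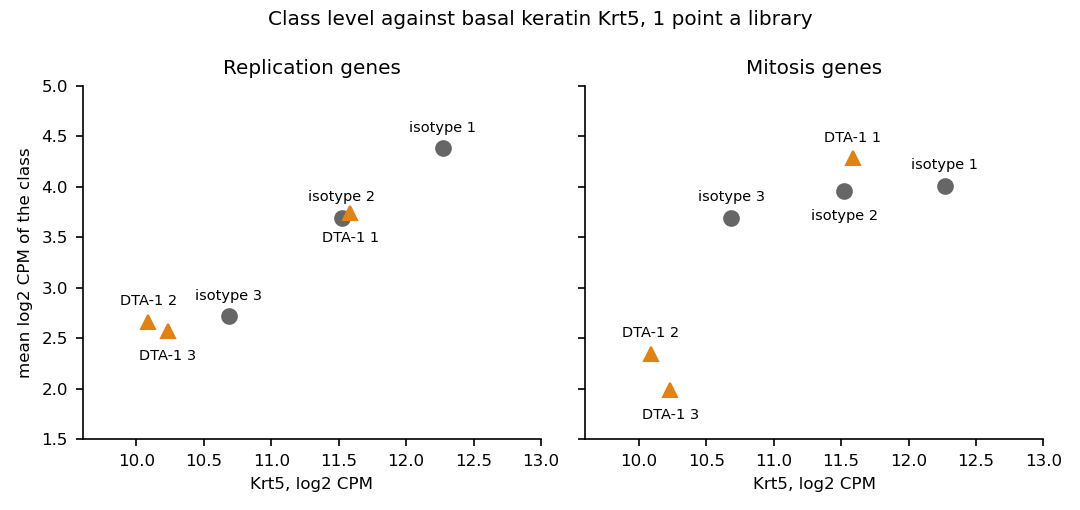
Mean log2 CPM of the 19 replication genes (left) and the 24 mitosis genes (right) against log2 CPM of Krt5, with 1 point a library. On the left the points lie along a line from DTA-1 replicates 2 and 3 up to isotype replicate 1, and on the right 4 libraries lie between 3.69 and 4.28 while DTA-1 replicates 2 and 3 lie at 2.34 and 1.99.

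Other genes of the same machinery, listed by role, showed the same split between libraries by their medians, with exceptions. Of 38 further replication genes 32 had a fold change below 0, against 52.9% of all genes. The median fold change was -0.54, from -1.33 to 0.38 with 6 above 0, and edgeR called none. Their r with Krt5 ran from -0.66 to 0.99. Their median in isotype replicate 3 relative to isotype replicate 1 was -0.95. Slbp, which handles histone mRNA, was at 17.6, 14.7 and 13.1 against 11.8, 9.80 and 9.03 CPM, the only one of the 38 with no overlap between groups (fold change -0.57 ± 0.21, adjusted p = 0.390 in edgeR). Among all genes, 9.38% had every DTA-1 library below every isotype library, a larger share than in this list. The maintenance methyltransferase gene Dnmt1 was at 45.0, 38.4 and 26.6 against 30.1, 19.9 and 22.5 CPM. Prim1, a primase subunit gene, was at 14.8, 12.0 and 5.19 against 7.52, 3.82 and 4.11 CPM, and both genes overlapped between the groups.

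Of 48 further mitosis genes 47 had a fold change below 0, against 52.9% of all genes, the median being -0.65. In 47 of the 48 the 2 lowest values were in DTA-1 replicates 2 and 3, against 22.8% of all genes. None was called by edgeR. Incenp, the scaffold of the passenger complex, was at 31.6, 26.2 and 27.6 against 28.0, 9.80 and 9.28 CPM. The centromere gene Cenpm was at 3.76, 1.77 and 1.52 against 1.74, 0.801 and 0.685 CPM. The exception was Pttg1, which encodes securin, the inhibitor that anaphase destroys. Pttg1 was at 29.8, 28.7 and 39.6 against 37.0, 56.3 and 55.6 CPM (fold change 0.60 ± 0.22, adjusted p = 0.390 in edgeR), and its highest values were in the libraries where the other mitosis genes were lowest.

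Upstream of the cycle, all 8 tested G1 drivers had negative fold changes (median -0.63), where 52.9% of all genes did, and none was called by edgeR. Myc, the growth transcription factor gene, was at 66.6, 60.5 and 68.2 against 48.2, 29.3 and 22.0 CPM, with every DTA-1 library below every isotype library. Its relative Mycl was at 10.8, 16.0 and 19.6 against 9.87, 6.08 and 2.31 CPM, also without overlap. Such separation, with DTA-1 below, was seen in 9.38% of all genes. The G1 kinase gene Cdk4 was at 133.3, 107.2 and 76.6 against 90.2, 60.6 and 70.3 CPM, with overlap. The fold changes were -0.97 ± 0.29 for Myc, -1.35 ± 0.51 for Mycl and -0.52 ± 0.25 for Cdk4, each at an adjusted p of 0.390 to 0.407 in edgeR.

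The 14 inhibitors and antiproliferative genes had no common direction, with 8 negative fold changes and a median of -0.09, and edgeR called none. Cdkn2b, the INK4B inhibitor gene, was at 28.4, 10.8 and 8.44 against 5.65, 5.56 and 4.83 CPM. Its neighbour Cdkn2a was at 37.4, 7.28 and 5.34 against 4.61, 6.22 and 2.57 CPM, so that isotype replicate 1, the library highest in replication genes, was also highest in both. Btg1, an antiproliferative gene, was at 68.2, 58.8 and 57.2 against 49.6, 35.3 and 35.4 CPM. For Cdkn2b and Btg1 all DTA-1 values were below all isotype values, as in 9.38% of all genes. The reverse held for Ccng1, the gene of cyclin G1 and a target of p53, at 592.9, 533.9 and 969.8 against 1003, 1431 and 1075 CPM. That direction was seen in 1355 of the 15763 genes tested. The adjusted p in edgeR was 0.390 for Cdkn2b and Btg1 and 0.391 for Cdkn2a and Ccng1.

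By mean log2 CPM, both squamous marker lists had their lowest levels in the libraries with the lowest mitosis genes, and no other cell type list tested had DTA-1 replicates 2 and 3 as its lowest pair. The 12 differentiated squamous markers, genes of the upper layers, summed to 26725, 39294 and 42310 CPM with isotype and to 26782, 6920 and 8423 CPM with DTA-1, so that DTA-1 replicates 2 and 3 were lowest here too. Their part in the result was not tested. The basal list had its lowest values in the same 2 libraries. With that list as covariate the treatment medians were 0.48 for replication and 0.25 for mitosis genes, and with the striated muscle list 1.19 and 0.54, with no member called by edgeR in either fit. T cell markers summed to 6.96 to 12.3 CPM with isotype and 3.52 to 7.82 CPM with DTA-1. B cell and plasma cell markers summed to 1.88 to 25.7 CPM and 8.83 to 71.1 CPM. The mean log2 CPM of 8 macrophage and neutrophil markers overlapped between the groups, at 6.87, 6.05 and 4.83 with isotype and 5.26, 5.49 and 5.42 with DTA-1. Their sums, 3812 to 5052 CPM against 1654 to 3460 CPM, rest on S100a8 and S100a9, and the other 6 markers summed to 803, 260.0 and 118 with isotype and 153, 1230.1 and 354 CPM with DTA-1. The part of these immune cells in the result was not tested.

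**Figure D5:**
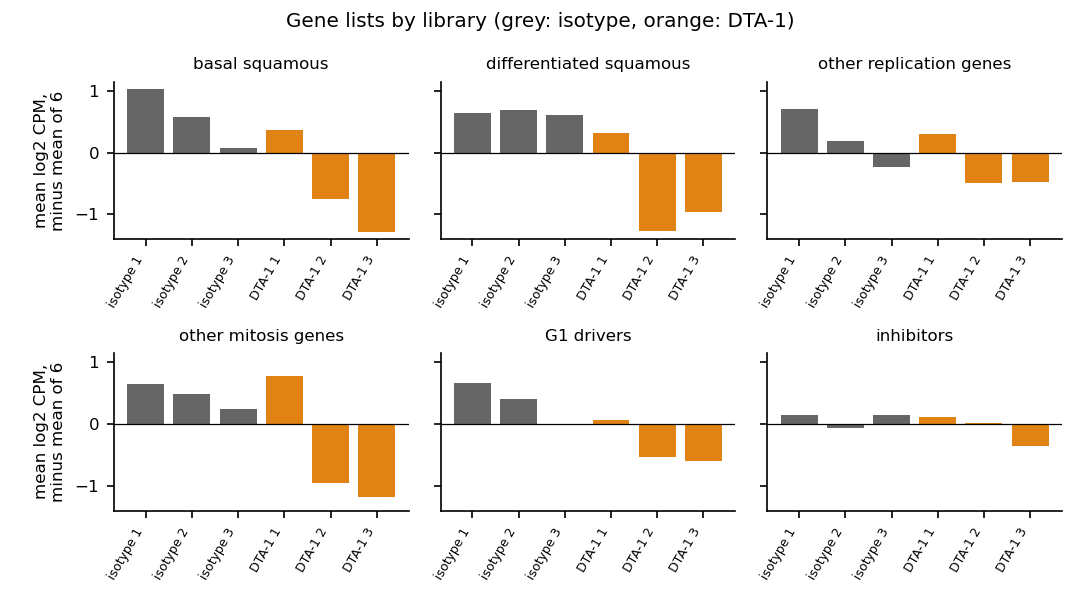
Mean log2 CPM of 6 gene lists in each library, minus the mean over the 6 libraries, with isotype in grey and DTA-1 in orange. DTA-1 replicates 2 and 3 are the lowest 2 libraries for both squamous lists, for the other replication and mitosis genes and for the G1 drivers.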

How the data were processed

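RNA-seq counts of 3 isotype and 3 DTA-1 libraries were used. The authors deposited whole-number read counts per Ensembl gene, 1 file a library, without normalization. The submitters' processing notes name build mm10 and the tools STAR, HTSeq 0.6.1p1, cutadapt 1.13 and DESeq2 1.14.1. The settings, strand included, are not stated in the sources used here.

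Symbols and positions came from GENCODE M21 (GRCm38, the assembly named mm10). In R 4.3.3, edgeR 4.0.16 was used: filterByExpr kept genes (count of at least 10, total of at least 15), TMM set the scaling, and glmQLFit and glmQLFTest, robust, gave the quasi-likelihood test of treatment as sole term, with Benjamini-Hochberg adjustment over all 15763 genes at 0.05. Log2 CPM used a prior count of 2, and CPM per kb used the merged exon length. DESeq2 1.42.0, limma-voom (limma 3.58.1), 2 scalings, 2 filters, covariates, a replicate block and each library left out were the alternatives. The fits were tested on simulated data with known fold changes.

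The 43 members, the other lists and the rules were chosen with earlier results of these data known. Values in every library are given for members named by role, for the 2 most and 2 least negative fold changes of each class and, from each related list, for the 3 genes of smallest p. Mcm6, Mcm7, Rrm1, Ccng1, S100a8, S100a9 and the overlapping genes were named outside this rule, after their values were seen. Every pair of libraries differed by more than sampling noise (median chi-square of at least 3.91 a gene). Counting error alone is covered by the floor of 3 reads, 0.108 to 0.141 CPM.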

Additional observations from a re-analysis of the deposited data

How the results depend on the processing

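The count of 0 members and 0 genes called held under both other scalings, both other filters, limma-voom, the replicate block, the 3 covariates and the loss of any single library other than DTA-1 replicate 1. DESeq2 called 180 genes, none of them members. Leaving out 1 library in turn gave 0 to 601 genes, 0 to 16 members, replication medians from -1.23 to -0.16 and mitosis medians from -1.75 to -0.30. The count of 0 members called on Krt5 held in every alternative run, the slope without treatment and the basal list in place of Krt5 included. Library totals alone moved the median of all genes from -0.03 to -0.19 and the class medians to -0.88 and -0.84. By limma-voom the replication median was -0.58 and the mitosis median -1.01.

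The replicate block gave a mitosis median of -1.02 and a replication median of -0.58. The shared replicate number is only a number in the labels: deviations of same-numbered libraries correlated at 0.02, -0.33 and -0.09 for numbers 1, 2 and 3, and isotype replicate 2 correlated best with DTA-1 replicate 3 (0.36).

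Covariates turned the direction of the replication median (0.16 with Krt5, 0.48 with the basal list and 1.19 with the muscle list) and of the mitosis median (0.25 and 0.54 with the latter lists). Each covariate differs between the groups, and the cause was not tested. Single log2 fold changes that turned with Krt5 were Ccnb1 0.029, E2f1 0.47, Ccne1 0.10, Mcm2 0.63, Mcm5 0.29, Mcm10 0.21, Cdc6 0.31, Pcna 0.067, Rrm2 0.092, Tyms 0.0069, Uhrf1 0.23, Ccne2 0.46 and Bub1b 0.071. With the basal list they were Mki67 0.18, Top2a 0.24, Ccnb1 0.68, Cdk1 0.23, Plk1 0.38, Aurkb 0.11, Cenpf 0.23, Cdc20 0.46, Foxm1 0.16, E2f1 0.45, Ccne1 0.52, Mcm2 0.90, Mcm5 0.66, Mcm10 0.66, Cdc6 0.51, Cdt1 0.25, Gins2 0.20, Pcna 0.23, Rrm2 0.50, Tyms 0.35, Uhrf1 0.67, Krt5 0.34, Ccne2 0.68 and Bub1b 0.58. With the muscle list they were Mki67 0.43, Top2a 0.74, Ccnb1 1.23, Cdk1 0.40, Plk1 0.50, Aurkb 0.38, Cenpf 0.38, Cdc20 0.67, Foxm1 0.26, E2f1 2.16, Ccne1 1.58, Mcm2 1.25, Mcm5 1.63, Mcm10 1.57, Cdc6 2.31, Cdt1 0.88, Gins2 0.56, Pcna 0.39, Rrm2 0.50, Tyms 0.75, Uhrf1 1.19, Krt5 1.06, Ccne2 1.35, Bub1b 0.86, Dnmt1 0.29, Prim1 0.71, Pttg1 -0.11, Cenpm 0.18 and Cdk4 0.36. With 1 library left out, Mcm2 ranged from -0.45 to 0.38, Ccne2 from -0.66 to 0.16 and Ccnb1 from -1.89 to 0.024, and no other named gene turned. Depth limits Cdc6 most, with 16 reads in its lowest library.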
